A study of Mus musculus with 10 samples.

Results

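The genes described here encode the nuclear-encoded proteins of oxidative phosphorylation in mouse liver. They were chosen by a rule on symbols, with earlier results of these data known. It took genes whose symbols begin with Nduf, Sdha, Sdhb, Sdhc, Sdhd, Uqcr, Cox4, Cox5, Cox6, Cox7, Cox8 or Atp5. Each also needed a probe set naming no other gene. That rule gave 94 genes of 18193, with 42 in complex I, 8 in complex II, 8 in complex III, 19 in complex IV and 17 in complex V. They comprise 73 structural subunits, 7 tissue isoforms, 12 assembly factors and 2 further proteins, Cox7a2l, which helps join complexes III and IV, and Ndufa4l2, a relative of the complex IV subunit Ndufa4. For each gene the probe set with the highest mean signal was used. A mean signal above 91, the median of all values, was reached by 90 of the 94; Ndufb4 (mean signal 49.2), Cox4i2 (64.0), Cox7b2 (23.0) and Cox8b (33.4) did not reach it. Genes with these prefixes but no probe set of their own were not analysed here. The gene symbols are older ones, so the ATP synthase genes appear as Atp5a1 to Atp5pb and the c subunits as Atp5g1, Atp5g2 and Atp5g3.

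The respiratory chain passes electrons from NADH through complex I, and from succinate through complex II, to coenzyme Q, then through complex III and cytochrome c to oxygen at complex IV. Complexes I, III and IV pump protons out of the mitochondrial matrix, and complex V, the ATP synthase, lets them back in to make ATP. Most subunits are encoded in the nucleus, and the rest, in the mitochondrial genome, are not among these genes. Hepatocytes are rich in mitochondria and rely on this chain for glucose synthesis, urea synthesis and fat oxidation.

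RNA was measured on 10 Affymetrix arrays, all from mice of a mixed 129/B6 background. The groups were 11-week Gnmt knockout liver (Gnmt -/-, 1 female and 1 male pool of 3 mice each), 11-week wild-type liver (1 female and 1 male pool of 3 mice each), and tissue of aged Gnmt knockout mice with 1 mouse per array. The aged arrays were a dysplastic nodule and its adjacent liver from a 21-month female, and hepatocellular carcinomas (HCC) and their adjacent livers from an 18-month male and a 14-month female. Lesion and adjacent tissue were paired by the shared sex and age in the labels, which give no mouse numbers. All aged tissue carried the knockout, and no aged wild-type liver was analysed here. The enzyme made by Gnmt methylates glycine with S-adenosylmethionine and is plentiful in normal liver.

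The values are array signals, already scaled by the authors so that each array had a trimmed mean of 500. Signals of different probe sets are not comparable in amount, so each gene is compared only with itself across arrays. Mean signals ran from 269.8 (Ndufb1) to 23963.1 (Ndufa1) in complex I, 787.7 (Sdhaf1) to 16571.4 (Sdhb) in complex II and 10102.8 (Uqcrc2) to 64344.7 (Uqcrb) in complex III. They ran from 137.6 (Cox7c) to 42735.1 (Cox6a1) in complex IV and 8764.7 (Atp5mpl) to 40748.7 (Atp5g3) in complex V. Differences are in log2 units of signal plus 16.8. Gnmt itself was at 245.2 and 190.0 in the knockout pools, against 59472.6 and 52139.9 in the wild-type pools, and at 11.7 to 329.4 on the aged arrays. All 8 hepatocyte markers were above the filter, with summed signals of 336416 to 556159, while 1 of 5 skeletal muscle markers was, with sums of 143.7 to 418.3. Among controls added at hybridisation, the BioC to BioB ratio was 1.45 to 1.84 on the aged arrays and 3.90 to 5.09 on the young ones. With 1 to 3 arrays on each side of a comparison, the number of arrays limits the precision, and tests on 2 pools per genotype measure the spread between pools.

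Most respiratory chain genes had higher signals in 11-week knockout than in wild-type liver, by amounts that did not pass the test gene by gene. Of the 90 genes, 78 had a positive log2 difference, with a median of 0.30 against -0.05 over all 11507 genes tested, which corresponds to a ratio of 1.23. In females 84 of the 90 were higher in knockout liver, and in males 69 were, against 45.9% and 47.5% of all genes. The knockout and wild-type pools did not overlap, with both knockout pools above, for 54 of the 90, against 21.6% of all genes, and with both below for 2 of the 90, against 26% of all genes. Within both sexes 66 were higher in knockout liver (29.1% of all genes) and 3 were lower (35.7% of all genes), namely Sdha, Sdhd and Atp5b. No member passed an adjusted p of 0.05 in limma, where 0.365% of all genes were called higher and 0.4% lower. At an unadjusted p below 0.05, 26 members were higher (8.83% of all genes) and 1 was lower (10% of all genes). That count, 27 in both directions together, depended on the fit. It was 4 without the intensity trend, 6 in a model over all 10 arrays and 15 without the sex term. With quantile normalization it was 21, and with 75th percentile centring 46. The share of all genes at that p in these other fits is not given here. The counts therefore do not show whether the members moved apart from the other genes.

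**Figure D1:**
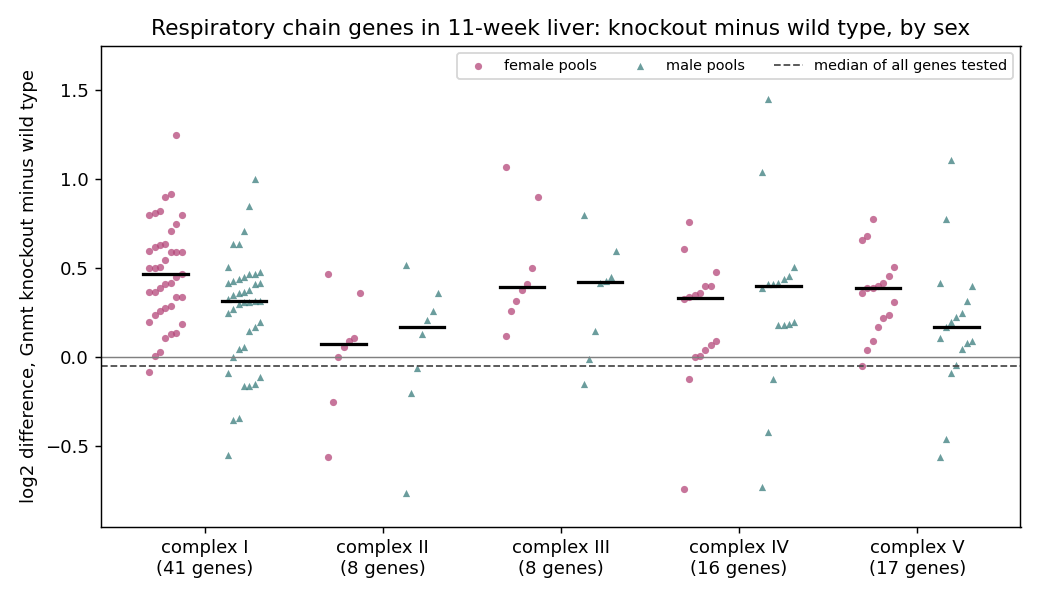
Log2 difference between Gnmt knockout and wild-type liver at 11 weeks for each of the 90 genes past the filter, by complex, with female pools as circles and male pools as triangles. Black bars are medians and the dashed line is the median of all genes tested (-0.05). The female median is highest in complex I (0.47) and the male median in complex III (0.42), and complex II has the lowest median in both sexes (0.07 in females, 0.17 in males).

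Complex I, which takes electrons from NADH, had 39 of 41 positive differences and a median of 0.43. Its supernumerary subunits, which surround the catalytic core and are needed for assembly and stability, had a median of 0.47, with 26 of 27 positive. The 6 core subunits measured, most of which carry the flavin or iron-sulfur clusters, had a median of 0.19, with 0.40 in females and -0.02 in males. For Ndufs8, a core subunit, the probe set used differed by 0.14. Others differed by 0.66, 0.67, 0.57 and 0.37, and the weakest by -0.37. In males the probe set used was at 16209.9 in knockout and 20480.9 in wild-type liver, and the next brightest at 19100.7 and 13219.2. The core medians thus depend on the probe set chosen. The difference between core and supernumerary subunits was not tested.

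Ndufc1, a small membrane-arm subunit of complex I, had signals of 13090.9 and 11877.3 in the female and male knockout pools, against 5500.9 and 7603.0 in the wild-type pools. Both knockout pools stood above both wild-type pools, by 0.95 ± 0.22 (SE over 2 pools of each genotype; limma, adjusted p = 0.1004). Its second probe set differed by 0.74. Ndufa13, a supernumerary subunit also known as GRIM-19, was at 33538.5 and 33432.3 in knockout liver, against 17967.6 and 24119.5 in wild-type liver, a difference of 0.69 ± 0.19 (adjusted p = 0.1373). The 2 knockout pools were close to each other and above both wild-type pools. Ndufv2, which carries an iron-sulfur cluster of the NADH-binding module, was at 14615.0 and 14976.2 in knockout liver, against 8328.8 and 11665.0 in wild-type liver, a difference of 0.59 ± 0.20 (adjusted p = 0.1989). Ndufs1, the largest core subunit, was lower in the male pair and higher in the female pair, at 4714.6 and 3961.3 in the knockout pools, against 4293.0 and 5800.0 in the wild-type pools, a difference of -0.21 ± 0.24 (adjusted p = 0.6808). Its groups overlapped. All 8 complex I assembly factors had positive differences, with a median of 0.34.

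Complex II, the succinate dehydrogenase that also belongs to the tricarboxylic acid cycle, was the complex with the lowest median (0.14). Its 4 assembly factors were positive with a median of 0.22, while 2 of its 4 subunits were negative. Sdha, the flavoprotein that oxidises succinate, was at 13234.2 and 10913.1 in the female and male knockout pools, against 15738.8 and 18493.8 in the wild-type pools. Both knockout pools lay below both wild-type pools, by -0.50 ± 0.20 (SE over 2 pools of each genotype; limma, adjusted p = 0.2503). The second Sdha probe set above the filter differed by -0.47. Sdhd, a membrane anchor, was at 6368.4 and 8390.7 in knockout liver, against 9424.1 and 9620.6 in wild-type liver, a difference of -0.38 ± 0.20 (adjusted p = 0.3559). Sdha and Sdhd were the 2 members with both knockout pools below both wild-type pools. Sdhb, which carries the iron-sulfur clusters, was at 24394.6 and 22004.9 in knockout liver, against 17607.2 and 22971.6 in wild-type liver, so its groups overlapped.

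Complex III, which passes electrons from coenzyme Q to cytochrome c, had 7 of 8 positive differences and a median of 0.40. Uqcr10, one of its small subunits, was at 16924.8 and 18479.8 in knockout liver, against 8062.5 and 10597.0 in wild-type liver. That difference of 0.93 ± 0.19 (SE over 2 pools of each genotype) had the lowest adjusted p of the 90 genes (limma, 0.07527). Its other probe sets differed by 0.67 and 0.61. Uqcrc2, a core protein of the matrix side, was at 15121.3 and 13644.4 in knockout liver, against 8100.3 and 10099.1 in wild-type liver, a difference of 0.67 ± 0.20 (adjusted p = 0.1669). Uqcrb, a small subunit near the quinone site, had the highest signals of all members and differed by -0.02 ± 0.16, with 67975.1 and 61645.3 in knockout liver against 62509.2 and 68618.0 in wild-type liver.

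Complex IV, cytochrome c oxidase, had 12 of 16 positive differences and a median of 0.26. Its nuclear subunits come in forms used by liver and by other tissues. Of the liver forms, Cox7a2 was at 43487.0 and 46778.0 in knockout liver, against 28441.8 and 34547.8 in wild-type liver, a difference of 0.52 ± 0.17 (adjusted p = 0.1774). Cox6b1 differed by 0.59 ± 0.18 (adjusted p = 0.1601), Cox4i1 by 0.41 ± 0.17 (adjusted p = 0.2583), Cox8a by 0.30 ± 0.19 (adjusted p = 0.4288) and Cox6a1 by 0.26 ± 0.16 (adjusted p = 0.4451). Each of these 5 was higher in knockout liver in both sexes. Cox7a1, the heart and muscle form, had low signals of 196.5 and 303.9 in knockout liver, against 145.1 and 138.8 in wild-type liver, and differed by 0.72 ± 0.35 (adjusted p = 0.3276). Cox6b2, the testis form, was at 1095.5 and 2612.3 in knockout liver, against 1063.6 and 944.0 in wild-type liver. Its difference of 0.75 ± 0.35 (adjusted p = 0.3069) rested on the male knockout pool, at 0.04 in the female pair and 1.45 in the male pair. Without the male knockout pool it was -0.48, in a model over all remaining arrays that takes the sex term partly from aged tissue. Cox6a2, another heart and muscle form, differed by -0.12 ± 0.47, and Ndufa4 by 0.15 ± 0.20, each with opposite signs in the 2 sexes. Cox7a2l differed by 0.21 ± 0.21 and Ndufa4l2 by -0.12 ± 0.43.

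Complex V had 14 of 17 positive differences and a median of 0.24. Atp5e, the epsilon subunit of the central stalk, was at 11363.1 and 17981.7 in knockout liver, against 7166.0 and 8320.2 in wild-type liver. Both knockout pools were above both wild-type pools, by 0.89 ± 0.20 (SE over 2 pools of each genotype; limma, adjusted p = 0.09818). The catalytic beta subunit Atp5b differed little, with 31371.6 and 27831.7 in knockout liver against 32401.5 and 28616.9 in wild-type liver, a difference of -0.04 ± 0.17 (adjusted p = 0.9152). The 5 small subunits of the membrane part had a median of 0.46 and were positive in both sexes. The 3 c-ring genes, which encode the same mature rotor subunit, had a median of 0.08, with Atp5g1 at -0.12 ± 0.25, Atp5g2 at 0.14 ± 0.19 and Atp5g3 at 0.08 ± 0.17.

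**Figure D2:**
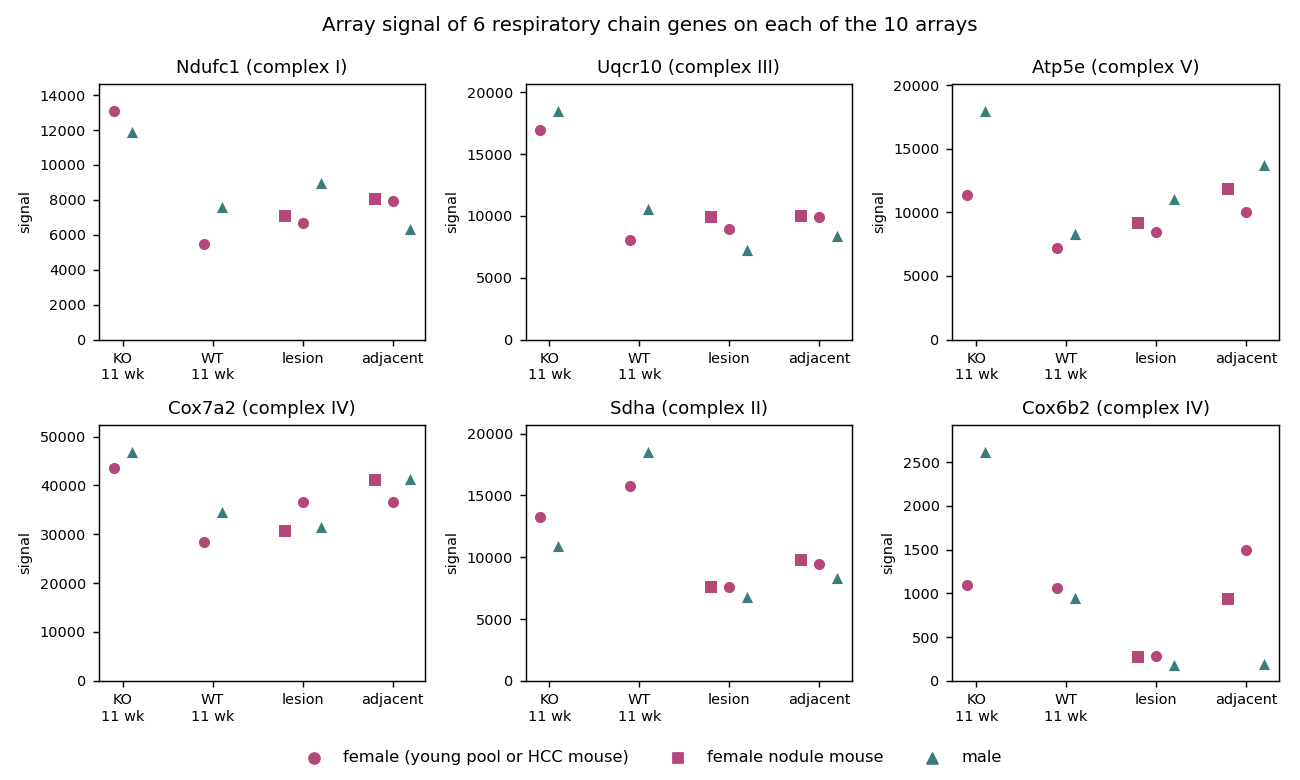
Array signal of 6 members on each of the 10 arrays, on linear axes that start at 0. For Ndufc1, Uqcr10, Atp5e and Cox7a2 both 11-week knockout pools lie above both wild-type pools, and for Sdha both lie below. Cox6b2 stands out by the male knockout pool and by low signals in all 3 lesions and in the adjacent liver of the male (195.5).

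The shift rested unevenly on single pools. Without the wild-type female pool the members' median was 0.19, and without the wild-type male pool it was 0.47, both in a model over all remaining arrays. The Actb 3' to 5' ratio, which reflects RNA integrity and labelling, was 3.38 and 3.18 in the knockout pools and 2.62 and 2.60 in the wild-type pools. The same ratio for Gapdh overlapped between genotypes, at 0.95 and 1.09 in the knockout pools and 0.94 and 0.98 in the wild-type pools. Summed endothelial markers, with 6 of 7 above the filter, were 4061 and 4096 in the knockout pools and 10738 and 7850 in the wild-type pools. Macrophage and Kupffer cell markers, with 8 of 8 above the filter, summed to 12533 and 11222 in the knockout pools and 21030 and 13801 in the wild-type pools. Hepatocyte markers summed to 426753 and 379088 in the knockout pools and 478422 and 440333 in the wild-type pools. For all 3 lists both knockout pools lay below both wild-type pools. The part of these in the result was not tested, and in whole liver more cells of a type and more RNA per cell cannot be told apart. Of 47 members with several probe sets above the filter, 15 had probe sets of opposite sign in this comparison, among them Ndufs8, Sdhc and Atp5a1.

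Around the chain itself, 2 genes that bear on its output passed the test. Slc25a4, the heart and muscle form of the ADP/ATP carrier that exchanges ATP for ADP across the inner membrane, was at 2649.7 and 1414.4 in knockout liver, against 180.2 and 267.3 in wild-type liver. It rose by 3.05 ± 0.36 (SE over 2 pools of each genotype; limma, adjusted p = 0.02506), and 2 further probe sets above the filter differed by 2.19 and 2.33. Atpif1, the inhibitor protein that stops ATP synthase from running in reverse, was at 5045.9 and 4200.7 in knockout liver, against 1010.6 and 1061.2 in wild-type liver. It rose by 2.13 ± 0.22 (adjusted p = 0.01815), while a second probe set just above the filter, at a mean signal of 104.63, differed by -1.29. Neither gene was called in fits that left out 1 pool, made in a model over all remaining arrays. That model also takes its spread partly from aged tissue. With no pool left out it called far fewer genes of any kind than the main fit, as given below. The loss of a pool and the change of model cannot be told apart in these fits. Over the mean of all its probe sets Atpif1 differed by 0.11 (adjusted p = 0.87) and Slc25a4 by 1.71 (adjusted p = 0.1105).

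Genes of neighbouring mitochondrial pathways showed the same sign in most lists, with no further call. Of 76 mitochondrial ribosomal proteins, which translate the mitochondrially encoded subunits, 72 had positive differences, with a median of 0.44, led by Mrpl41 (1.21 ± 0.28, adjusted p = 0.09818) and Mrpl13 (1.17 ± 0.20, adjusted p = 0.0572). Electron carriers and other entries to coenzyme Q were positive for 15 of 17, with a median of 0.41, led by Coq3, a methyltransferase of coenzyme Q synthesis (1.29 ± 0.23, adjusted p = 0.06197), and Dhodh, which feeds electrons from pyrimidine synthesis (0.76 ± 0.26, adjusted p = 0.2031). Tricarboxylic acid cycle genes were positive for 12 of 13, with a median of 0.37 (0.54 in females and 0.08 in males), led by Mdh2 (0.76 ± 0.26, adjusted p = 0.1954) and Fh1 (0.70 ± 0.18, adjusted p = 0.1264). Assembly factors outside the symbol rule were positive for 20 of 32, with a median of 0.24; among them Uqcc2 of complex III differed by 0.91 ± 0.21 (adjusted p = 0.1011) and the copper chaperone Sco1 by -0.86 ± 0.27 (adjusted p = 0.1742). Among 7 carriers of ATP, ADP and phosphate, Slc25a4 was the 1 called, and the list's median was 0.46 in females and -0.10 in males. Slc25a31, a testis form of the ADP/ATP carrier, passed the filter only through the male HCC (1816.9) and lay between 6.6 and 49.6 in the 4 pools compared here. Regulators of mitochondrial biogenesis and mitochondrial DNA expression divided evenly, with 9 of 19 positive and a median of -0.02. The members of that list with the largest differences were Slirp, which stabilises mitochondrial messenger RNA (1.05 ± 0.20, adjusted p = 0.07048), and Ssbp1, the mitochondrial single-strand DNA binding protein (0.71 ± 0.20, adjusted p = 0.1403).

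Promoters of respiratory chain genes are known to carry sites for NRF1, for GABPA (also called NRF2) and for YY1. RefSeq promoters of GRCm38.p6, from 250 bases before to 50 after the annotated start, were at hand for 78 of the 94 members. On either strand, the NRF1 motif was found in 19 of the 78 (24.4%), against 5.19% of 27025 genes. The GABPA motif CCGGAAG was found in 22 (28.2%), against 9.93% of genes, and the YY1 motif in 5 (6.41%), against 0.995% of genes. TATAAA was found in 9 (11.5%), against 15.7% of genes. The 18 members past the filter with the NRF1 motif had a median knockout difference of 0.25, against 0.38 in the 57 without it. For GABPA the medians were 0.29 in 22 members with the motif and 0.36 in 53 without.

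The 150 bases before the start are shown for the 3 members with the largest positive differences between knockout and wild-type liver and for Sdha, the one with the largest negative difference, with any of these motifs in capitals. All 4 lie on the minus strand of GRCm38.p6 and are written 5′ to 3′, for Uqcr10 at chr11:4704345-4704494, for Ndufc1 at chr3:51408956-51409105, for Atp5e at chr2:174464102-174464251 and for Sdha at chr13:74350241-74350390.
Uqcr10: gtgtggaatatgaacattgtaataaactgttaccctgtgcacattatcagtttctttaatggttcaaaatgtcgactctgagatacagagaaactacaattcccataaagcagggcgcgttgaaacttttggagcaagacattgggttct
Ndufc1: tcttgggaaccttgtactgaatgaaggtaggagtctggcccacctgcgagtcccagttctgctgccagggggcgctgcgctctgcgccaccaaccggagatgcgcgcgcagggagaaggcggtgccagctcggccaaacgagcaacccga
Atp5e: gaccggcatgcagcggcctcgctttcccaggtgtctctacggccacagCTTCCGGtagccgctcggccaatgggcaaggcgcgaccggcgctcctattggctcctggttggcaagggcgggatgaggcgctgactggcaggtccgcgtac
Sdha: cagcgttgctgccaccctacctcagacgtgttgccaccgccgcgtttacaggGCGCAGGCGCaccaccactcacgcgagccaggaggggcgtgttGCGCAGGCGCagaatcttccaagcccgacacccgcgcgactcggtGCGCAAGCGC
The Sdha stretch holds 3 NRF1 matches, the Atp5e stretch holds 1 GABPA match on the reverse strand, and the Uqcr10 and Ndufc1 stretches hold none of the motifs searched. A match in these letters is a description and not evidence of binding.

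Across the 10 arrays the members of a complex largely moved together. The median correlation of a member with the mean of the other members of its complex was 0.85 in complex III, 0.79 in complex V, 0.75 in complex I, 0.65 in complex II and 0.44 in complex IV, each over 10 arrays that share scaling and include paired tissue. Single values ran from -0.58 to 0.79 in complex IV, which includes the low-signal tissue isoforms. The means of complexes I and III correlated at 0.97, and those of complexes III and V at 0.98. After subtraction of each gene's own mean over the arrays, the members' median level was 0.29 and 0.38 in the female and male knockout pools of 11 weeks and -0.13 and 0.11 in the wild-type pools. It was -0.16 in the nodule and 0.07 in its adjacent liver, -0.22 in the female HCC and 0.00 in its adjacent liver, and -0.29 in the male HCC and -0.18 in its adjacent liver. The 2 young knockout pools were thus the highest of the 10 arrays, and the male HCC the lowest.

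**Figure D3:**
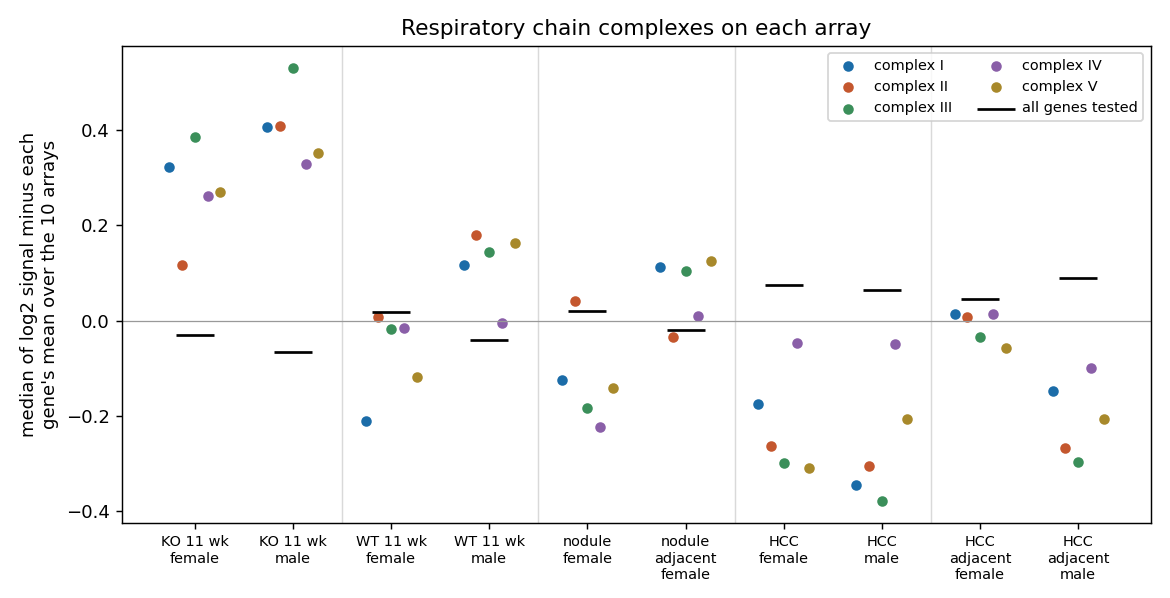
Median over the members of each complex of the log2 signal minus each gene's mean over the 10 arrays, with all genes tested as black dashes. The 11-week knockout pools are highest for complexes I, III, IV and V, and all 3 lesions lie below their adjacent liver for complexes I, III and V, with the male HCC and its adjacent liver level for complex V (-0.21 each).

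In lesions the same genes had slightly lower signals than in the adjacent liver of the same mouse, and none passed the test. Over the 3 pairs 81 of 90 differences were negative, with a median of -0.16 against 0.01 over all genes. With quantile normalization the median was -0.10 against -0.01 over all genes, with 71 negative. The medians were -0.20 in the nodule, -0.07 in the male HCC and -0.25 in the female HCC. In all 3 pairs 37 of the 90 were lower in the lesion, against 16.1% of all genes, and 4 were higher, against 16.1% of all genes. Those 4 were Ndufb1, Sdhaf1, Cox6a2 and Cox7a2l. No member was called by limma (0% of all genes lower, 0.00869% higher), and 1 reached an unadjusted p below 0.05, on the lower side (3.97% of all genes), with 0 on the higher side (5.81% of all genes).

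In the means over the 3 pairs, complex V, with 17 of 17 negative differences and a median of -0.17, and complex III, with 8 of 8 and -0.19, were the most uniform. Single pairs were less so. Of the 17 complex V genes, 6 were higher in the male HCC than in its adjacent liver, 1 in the female HCC and 0 in the nodule. Of the 8 complex III genes, 3, 2 and 1 were. Complex I had 37 of 41 negative (median -0.20), complex IV 13 of 16 (-0.10) and complex II 6 of 8 (-0.08). Cox6b2 differed most. It was at 266.9 in the nodule, 287.5 in the female HCC and 180.1 in the male HCC, against 930.9, 1489.6 and 195.5 in the adjacent livers of those mice. Its difference of -1.39 ± 0.42 (SE, n = 3 pairs, limma adjusted p = 0.3893) was large in the 2 females only, and the male's adjacent liver was nearly as low as the tumour. Without the male pair it was -2.02 and was called (adjusted p = 0.01696, in a fit over the other 4 arrays).

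Ndufb10, a supernumerary complex I subunit, was at 6200.1 in the nodule, 4912.8 in the female HCC and 4462.5 in the male HCC, against 8077.0, 8524.7 and 5210.8 in adjacent liver. It was lower in each lesion, by -0.47 ± 0.19 (adjusted p = 0.5169). Sdha was at 7601.3, 7610.3 and 6788.5 in these lesions, against 9788.3, 9461.4 and 8314.6 in adjacent liver. The 3 lesions lay below all 3 adjacent livers, by -0.32 ± 0.17 (adjusted p = 0.5943), with nearly equal differences of -0.36, -0.31 and -0.29. Uqcrfs1, the Rieske iron-sulfur protein of complex III, was at 11552.9, 7845.4 and 5770.4 in the lesions, against 12168.5, 11255.4 and 7590.6 in adjacent liver, and differed by -0.33 ± 0.19 (adjusted p = 0.6161). Atp5md, a small membrane subunit that supports ATP synthase dimers, was at 8630.2, 9879.8 and 11009.4 in the lesions, against 17212.4, 11593.4 and 12110.6 in adjacent liver, a difference of -0.45 ± 0.23 (adjusted p = 0.5793) in which the nodule weighed most.

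Of the higher members, Ndufb1 differed by 0.19 ± 0.24, Sdhaf1 by 0.03 ± 0.18, Cox6a2 by 0.34 ± 0.32 and Cox7a2l by 0.21 ± 0.17, with no unadjusted p below 0.05. The liver isoforms of complex IV gave Cox4i1 at -0.10 ± 0.18, Cox6a1 at -0.07 ± 0.19, Cox6b1 at -0.01 ± 0.21, Cox8a at -0.15 ± 0.18 and Cox7a2 at -0.27 ± 0.20. Cox7a1 differed by -0.03 ± 0.29 and Ndufa4 by -0.25 ± 0.20. Atp5g1, Atp5g2 and Atp5g3 differed by -0.18 ± 0.21, -0.21 ± 0.19 and -0.15 ± 0.20.

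**Figure D4:**
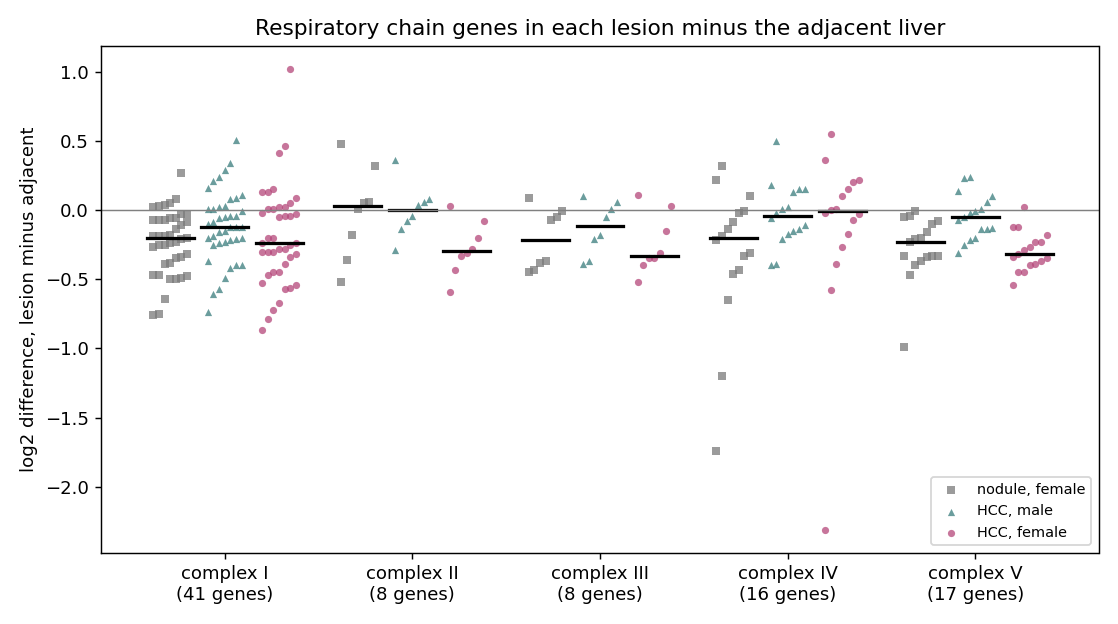
Log2 difference between each lesion and its adjacent liver for the 90 genes, by complex, with the nodule as squares, the male HCC as triangles and the female HCC as circles. Black bars are medians of each lesion; the female HCC and the nodule lie below 0 for complexes I, III and V, and the male HCC lies nearer to 0.

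In the 2 HCC alone, 70 of 90 differences were negative, with a median of -0.14 against -0.003 over all genes, and 44 were lower in both (27.4% of all genes), while 10 were higher in both (25.7% of all genes). Without the male pair the median was -0.25 and without the female pair -0.07, and with quantile normalization it was -0.09. No member was called, where limma called 0.0174% of all genes lower and 0.0695% higher, and the lowest adjusted p was 0.6139, for Cox6b2. At an unadjusted p below 0.05, 1 member was lower (3.15% of all genes) and 0 higher (4.43% of all genes). Uqcrfs1 differed by -0.46 ± 0.26 (adjusted p = 0.7943) and Ndufb10 by -0.51 ± 0.28 (adjusted p = 0.7726). Sdhaf3, an assembly factor of complex II, differed by -0.32 ± 0.29, Atp5mpl, a small membrane subunit of complex V, by -0.31 ± 0.26 and Uqcr11, a small complex III subunit, by 0.09 ± 0.26. The core subunits of complex I were lower in the female HCC, with a median of -0.54 and 6 of 6 negative, against -0.15 in the male HCC. For Ndufs8 this depended on the probe set used, at 10914.3 in the female HCC and 16118.3 in its adjacent liver. Its next brightest probe sets were higher in that HCC, at 10940.6 against 9022.6 and 9473.4 against 7479.8, and the weaker ones went either way. Of 4 adipocyte markers, 3 had a probe set and 1 of these was above the filter, with Ucp1 below 16.8 on every array. Summed signals of the list were 10363 in the female HCC, where they rest mostly on 1 gene, and 376.1 in its adjacent liver. In the male they were 472.1 in the HCC and 842.7 in its adjacent liver. Summed neutrophil markers were 13721 in the male HCC and 13696 in its adjacent liver, and 1381 and 1464 in the tissues of the female. Their part in these differences was not tested.

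In the nodule, with 1 array on each side and no test, 75 of 90 members were lower than in the adjacent liver, against 47.6% of all genes, and 15 were higher, against 52.4% of all genes. At 1.5-fold or more, 7 of 90 were lower (11.8% of all genes) and 0 higher (17.8% of all genes). Those 7 were Cox6b2 (-1.74), Cox8c, the testis form of a complex IV subunit (-1.20), Atp5md (-0.99), the complex I subunits Ndufs8 (-0.76) and Ndufa8 (-0.75), Cox7c of complex IV (-0.65) and the assembly factor Ndufaf4 (-0.64). Cox7c signals were weak, at 67.6 in the nodule and 116.0 in its adjacent liver. A second Cox8c probe set, below the filter, went the other way, at 117.0 and 67.6. For Ndufaf4 a second probe set differed less, at 723.9 and 795.3. The lowest members of complexes II and III were Sdhd (-0.52) and Uqcrb (-0.45). With quantile normalization the members' median in the nodule was -0.07 in place of -0.20, and 59 were lower. Ndufs8 was at 12897.1 in the nodule and 21825.7 in its adjacent liver on the probe set used, but the mean over all its probe sets differed by -0.21. On the other side, Sdhaf4, an assembly factor of complex II, differed by 0.48, with all 4 assembly factors of that complex positive, and Uqcrc1, a core protein of complex III, by 0.09.

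The adjacent livers of aged knockout mice were compared with the 11-week knockout pools. Age, pooling and any hybridisation batch cannot be told apart here, as the BioC to BioB ratios above divide the same arrays. The median difference was -0.36 against 0.09 over all genes, and 81 of 90 were negative. All 3 aged livers lay below both young pools for 48 of the 90, against 10.6% of all genes, and above both for 0 of the 90, against 16.9% of all genes. The medians for each mouse against the young pool of the same sex were -0.21 for the nodule mouse, -0.30 for the female HCC mouse and -0.58 for the male HCC mouse. With quantile normalization the median was -0.23 against -0.01 over all genes. Summed neutrophil markers were 804.3, 1464.2 and 13696.0 in the aged livers of the nodule mouse, the female HCC mouse and the male HCC mouse, against 258.3 and 984.9 in the female and male young pools. Summed B and plasma cell markers, with 3 of 4 above the filter, were 1428.9, 969.6 and 1811.1 in those aged livers, against 479.6 and 433.4 in the young pools. Their part in the result was not tested. No gene of any kind was called in limma (0% of all genes in each direction), and 21 members were lower at an unadjusted p below 0.05 (4.51% of all genes) with 0 higher (7.6% of all genes).

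Complex III had the lowest median, -0.58, with 7 of 8 negative, and complexes II and V were negative throughout, with medians of -0.36 each. Complex I had 37 of 41 negative (median -0.35) and complex IV 12 of 16 (-0.32). Uqcr10 was at 9979.7, 9921.8 and 8369.2 in the adjacent livers of the nodule mouse, the female HCC mouse and the male HCC mouse, against 16924.8 and 18479.8 in the female and male 11-week pools, a difference of -0.93 ± 0.21 (limma adjusted p = 0.3773). Those aged signals lay in the range of the young wild-type pools. Atp5c1, the gamma subunit that turns inside the ATP synthase head, was at 17474.7, 14985.1 and 10269.0 in aged adjacent liver, against 27721.9 and 27019.9 in the young pools, a difference of -1.04 ± 0.24 (adjusted p = 0.3773). Ndufb8, a complex I subunit often used as a marker of its assembly, was at 8277.9, 7721.0 and 5616.7 in aged adjacent liver, against 12848.3 and 15944.1 in the young pools, a difference of -1.03 ± 0.25 (adjusted p = 0.3818). For both genes all aged livers lay below both young pools, and the male was lowest.

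Sdhb was at 18044.2, 15715.4 and 8079.5 in aged adjacent liver, against 24394.6 and 22004.9 in the young pools, a difference of -0.92 ± 0.27 (adjusted p = 0.3935). Cox8a was at 8718.5, 9560.8 and 5707.6 in aged adjacent liver, against 13078.7 and 11042.3 in the young pools, a difference of -0.70 ± 0.22 (adjusted p = 0.3935). Ndufaf2, an assembly factor of complex I, differed by 0.30 ± 0.24 (adjusted p = 0.6254) and was higher in each of the 3 aged livers than in the young pool of its sex. Cox6b2 differed by -1.50 ± 0.76, with -3.63 in the male and -0.23 and 0.44 in the females. Atpif1 differed by -1.08 (adjusted p = 0.3773), with 3235.3, 2533.7 and 1550.6 in aged adjacent liver against 5045.9 and 4200.7 in the young pools. Without the female young pool the members' median was -0.58, in a fit whose differences are those of the male aged liver against the male young pool. In it Cox6b2 differed by -3.63, Ndufb8 by -1.50, Sdhb by -1.44 and Atp5c1 by -1.39. The spread in that fit comes from the 2 female aged livers only, so its tests are not given. This comparison and the genotype comparison share the 11-week knockout pools, so low values in one and high values in the other are partly the same measurement.

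**Figure D5:**
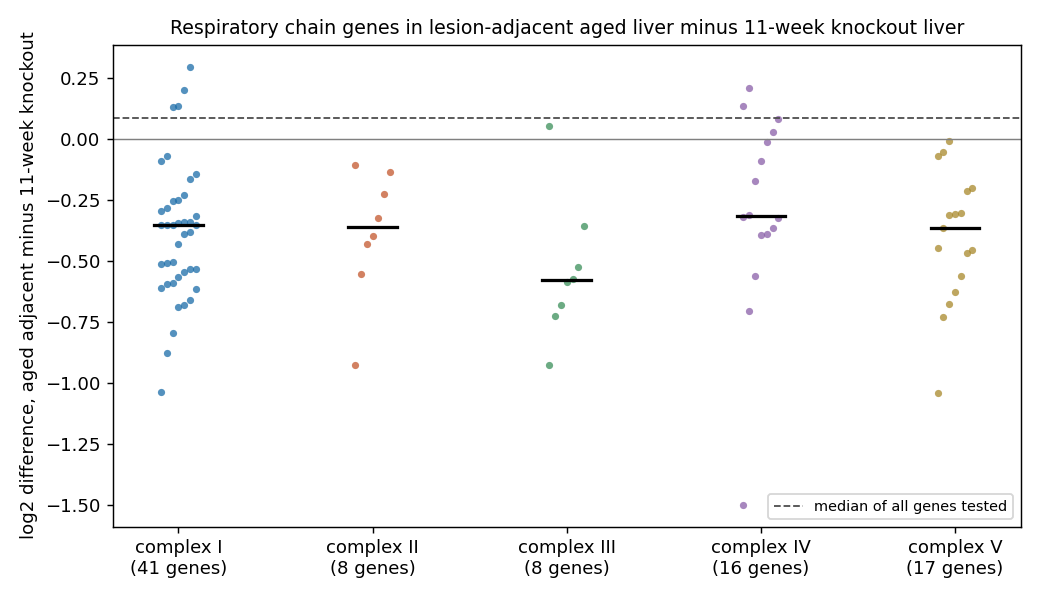
Log2 difference between the 3 adjacent livers of aged knockout mice and the 2 knockout pools of 11 weeks for each of the 90 genes, by complex. Coloured points are genes, black bars are medians and the dashed line is the median of all genes tested (0.09). All complex II and V genes lie below 0.

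Females had slightly lower signals than males at 11 weeks. The median difference was -0.19 against 0.03 over all genes, with 76 of 90 negative. In both genotypes 50 of the 90 were lower in females (25.3% of all genes) and 3 were higher (31.5% of all genes). In wild-type liver 81 of 90 were lower in the female pool (median -0.25), and in knockout liver 56 were (median -0.10). Both female pools lay below both male pools for 16 of the 90, against 13% of all genes, and above for 2, against 17.7%. No member was called by limma (0.104% of all genes lower, 0.139% higher), and 6 were lower at an unadjusted p below 0.05 (3.54% of all genes) with 0 higher (5.25% of all genes). Atp5md was at 15139.3 and 11457.7 in the knockout and wild-type females, against 33001.8 and 19246.3 in the males, a difference of -0.94 ± 0.19 (SE over 2 pools of each sex; adjusted p = 0.2379). Ndufaf5, an assembly factor of complex I, was at 268.9 and 134.4 in the females, against 417.3 and 334.1 in the males, a difference of -0.91 ± 0.31 (adjusted p = 0.4958). Ndufs5, a supernumerary complex I subunit, was at 5365.6 and 4663.4 in females, against 10112.7 and 7565.7 in males (-0.80 ± 0.19). Sdhaf2 differed by -0.39 ± 0.22 and Uqcr11 by -0.32 ± 0.18, while Cox8c differed by 0.45 ± 0.27 and Atp5b by 0.18 ± 0.17. In a model over all 10 arrays, which takes the sex term partly from aged tissue, the members' median was -0.05. With any 1 pool left out of that model it lay between -0.02 and 0.02. The direction of the sex difference thus did not hold in that model, which cannot tell a left-out pool from the weight of the aged tissue.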

How the data were processed

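Total RNA (5 ug) was labelled as biotinylated cRNA and hybridised to 10 Affymetrix arrays, per the labels' protocols. The deposited values are signal intensities from GCOS, per the submitters' processing notes (its version is not given in the sources used here). Each deposited array had a mean of 500 after trimming 2% at each end. Of 45101 probe sets, 34945 named 1 gene, giving 18193 genes by their highest probe set. Signals plus 16.8, the 20th percentile of all values, were log2 transformed, and 11507 genes with a mean above 91 were fitted with limma 3.58.1 in R 4.3.3 (intensity trend, Benjamini-Hochberg over all 11507, adjusted p below 0.05 called). Terms were sex for knockout against wild type and for age, genotype for sex, and mouse for lesions, whose pairs rest on matching sex and age. The scripts were tested on simulated data. Members and lists were chosen with earlier results of these data known. Named were called members, the largest difference of each sign in each complex that kept its sign in all pairs, isoform pairs, and called or the 2 leading genes of each pathway list. Alternatives were the added constant, scaling, filter, probe set, variance trend, arrays fitted, covariates and left-out arrays.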

Additional observations from a re-analysis of the deposited data

Results flagged for a closer look

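The median of the 8 complex II genes had opposite signs in the 2 HCC pairs. It was 0.0008 in the male HCC against its adjacent liver and -0.2982 in the female HCC against its adjacent liver. The difference between the 2 mice was not tested.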

How the results depend on the processing

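Members called were 0 in every tested comparison, and other settings moved that count in 4 cases. Between knockout and wild-type liver, 1 was called after quantile normalization (Uqcr10, 0.79, adjusted p = 0.03929) and 2 after centring on the 75th percentile (Uqcr10, 1.09, and Atp5e, 1.04). With arrays left out, 1 was called in lesions without the male HCC pair (Cox6b2). In aged liver the count moved only without the female young pool. That fit sets the male aged liver against 1 young pool, so its count is not given. The members' median between knockout and wild type was 0.2563 with quantile normalization, 0.4474 with 75th percentile centring, which moves the median of all genes too, 0.2389 over all probe sets, and 0.1853 to 0.4711 with 1 pool left out. It was -0.2454 to -0.0681 in HCC with a pair left out, and with quantile normalization -0.0937 in HCC and -0.0963 in lesions. Relative to all genes, quantile normalization gave 0.2307 in place of 0.3464 for the genotypes, -0.0873 in place of -0.1744 for lesions and -0.22 in place of -0.4452 for aged liver. In aged liver it was -0.2301 with quantile normalization, -0.5425 with 75th percentile centring and -0.5784 to -0.2418 with an array left out. For sex it was -0.305 with 75th percentile centring, -0.048 over all arrays and -0.0221 to 0.0235 with a pool left out. In the nodule it was -0.0702 with quantile normalization and -0.3254 with 75th percentile centring. Reversed values were, with 75th percentile centring, Atp5b at 0.107 (knockout), Sdhaf1 at -0.0017 (HCC) and -0.0377 (lesions) and Uqcrc1 at -0.0359 (nodule); with quantile normalization, Sdhaf1 at -0.0002 (lesions); over all probe sets, Cox6a2 at -0.2209 (HCC) and Cox8c at -0.1099 (sex). With 1 pool left out, these fits used a model over all remaining arrays, aged tissue included. In them Cox6b2 ran from -0.4774 to 1.9717 and Atp5b from -0.1356 to 0.0489 (knockout), and Ndufa4 reached 0.0089 and 0.1848 (sex). The cause was not tested. Without the replicate block (mouse), 0 members were called in HCC and lesions. The medians of -0.1441 and -0.1649 cannot change in that setting, as every lesion has its adjacent liver. Genes called between knockout and wild type numbered 88, against 542 with quantile normalization, 258 with 75th percentile centring, 30 over all probe sets, 1 without the variance trend, 2 over all arrays and 0 to 9 with a pool left out.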

Other observations

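Mitochondrial genes outside the complexes were compared in lesions and aged liver with the same lists. In the 2 HCC, tricarboxylic acid cycle genes were negative for 13 of 13, with a median of -0.32, while in the nodule 6 of 13 were negative, with a median of 0.01. Mitochondrial ribosomal proteins were negative for 57 of 76 in lesions (median -0.10) and for 67 of 76 in aged adjacent liver against 11-week knockout liver (median -0.34). None of these genes passed the test in limma. Between females and males at 11 weeks, Coq8a, a kinase-like protein of coenzyme Q synthesis, differed by 1.58 ± 0.20 (limma, adjusted p = 0.05147).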
